A study of Mus musculus with 4 samples.

Results

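Cytosolic ribosomal protein genes are described here as the series' own gene annotation draws them: 83 protein-coding genes of the 46078 genes in the deposited file. They were taken by symbol, as genes of the biotype protein_coding whose name is Rpl, Rps or Rplp followed by digits and at most 1 of the letters a, l, x or y with further digits. Of the 83, 43 encode proteins of the large subunit, 30 of the small subunit and 3 (Rplp0, Rplp1 and Rplp2) the stalk of the large subunit, and 7 are paralogues whose symbol ends in l or in l and digits. A further 4 genes fit the symbol pattern but carry the biotype processed_pseudogene (Rps3a2, Rps3a3, Rps12l1 and Rps12l2) and were not taken. The study put macrophages grown from mouse bone marrow (strain C57/BL6) in a pressure chamber for 6 h and sequenced their RNA, with 1 library in each of 4 groups: Piezo1 fl/fl without Cre, static; Piezo1 fl/fl without Cre, cyclic hydrostatic pressure; Piezo1 fl/fl with LysM Cre+, static; and Piezo1 fl/fl with LysM Cre+, cyclic hydrostatic pressure. All 4 groups therefore carry the floxed alleles of Piezo1, a mechanically gated cation channel, and LysM drives Cre in cells of the myeloid lineage. The file holds features and coordinates and 0 columns of library values, so everything below describes gene models and their sequences. No level, error or difference between the 4 groups was measured, the depth of the libraries is unknown, and a check of the cell type against its markers could not be made.

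A ribosome is built from ribosomal RNA and many different proteins that are made in near-equal amounts and assembled in the nucleolus. In mammals most of these proteins come from 1 active, intron-containing gene each, whose mRNA is short, abundant and often begins with a C and a run of pyrimidines, the 5′ terminal oligopyrimidine (TOP) tract through which mTOR signalling controls its translation. Their introns are known hosts of small nucleolar RNAs (snoRNAs), which guide chemical modification of ribosomal RNA, and their mRNAs are among the most frequent templates of processed pseudogenes, intronless copies that LINE-1 enzymes write back into the genome. For a macrophage RNA-seq experiment these copies matter because a short read can fit a gene and its copy equally well.

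Each gene was represented by its protein_coding transcript with the longest coding sequence, and lengths are in bases of that model on GRCm38. The 83 genes were compact. Their median model had 5 exons (quartiles 4 and 6), where all 22111 protein-coding genes with a coding transcript had 7 (quartiles 3 and 12), and 74 of 83 had 3 to 7 exons. The median coding sequence was 468 bases against 1164, the spliced transcript 805 against 2309, the genomic span of the model 3084 against 15092 and the first intron 383 against 2787.5. The 78 genes of the mitochondrial ribosome (Mrpl and Mrps), a separate set of ribosomal proteins, also had a median of 5 exons and a short coding sequence of 574.5 bases, but a span of 7131.5 bases.

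First exons and 3′ untranslated regions (UTRs) were short. The median first exon was 97 bases (quartiles 66.5 and 182), against 227 for all protein-coding genes and 168.5 for the mitochondrial ribosomal protein genes. In all, 44 of 83 (53.0%) had a first exon under 100 bases, which held for 16.7% of protein-coding genes. The median 3′ UTR was 84 bases (quartiles 43 and 266.5), against 580 for all protein-coding genes, 728 for those with a 3′ UTR in the model and 304.5 for the mitochondrial set. The 3′ UTR was under 100 bases in 48 of 83 (57.8%) and in 18.7% of protein-coding genes. The 5′ UTR differed less, with a median of 84 bases against 129, and the mitochondrial set had 83.

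**Figure D1:**
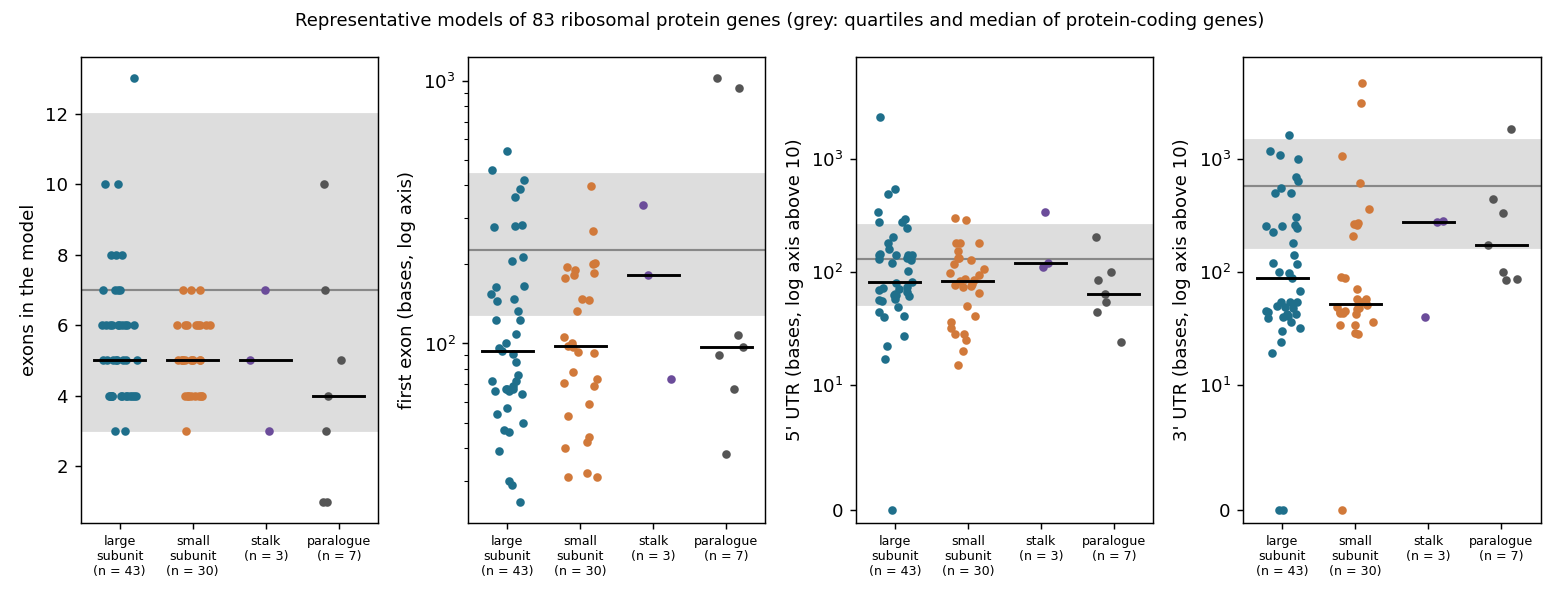
Exon number, first exon, 5′ UTR and 3′ UTR of the 83 representative models; each point is 1 gene, black lines are medians by role and the grey band and line give the quartiles and the median of all protein-coding genes (log axes where labelled). The 3′ UTR points of both subunits lie mostly below the grey band, with medians of 89 bases for the large and 52.5 for the small subunit, and the 2 single-exon paralogues stand at the top of the first exon panel.

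Among large subunit genes, Rpl3 and Rpl4, which encode proteins of the ribosome's core around the peptide exit path and the catalytic centre, had 10 exons each. Rpl3 packed 1209 coding bases behind a first exon of only 30 bases. The shortest first exons of all were the 25 bases of Rpl14 and the 29 bases of Rpl22, whose 5′ UTR of 17 bases was also among the shortest. The lowest-numbered Rpl22 transcript had a first exon of 43 bases and a 5′ UTR of 31. Rpl41, which encodes a tiny basic peptide, had the shortest coding sequence, 138 bases in this model. The largest exon number, 13, belonged to Rpl13a, a large subunit protein known in macrophages for its release from the ribosome after interferon-γ. That model (Rpl13a-011) has 1269 coding bases and reads into exons of its neighbour Flt3l, a haematopoietic cytokine gene. The lowest-numbered Rpl13a transcript had 8 exons, a first exon of 49 bases and a 3′ UTR of 388 bases. At the other end of the transcript, Rpl18 had the longest 5′ UTR, 2375 bases, followed by Rpl35 with 538 and Rpl30 with 488. Rpl35 also had the longest first exon of any multi-exon gene in the group, 541 bases. These lengths rest on the deposited starts. The start in RefSeq, another annotation, lay 2614 bases downstream in Rpl18 and 493 in Rpl35, counted on the genome. No RefSeq start was found for Rpl30.

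Small subunit genes had a median of 5 exons and a 3′ UTR of 52.5 bases, and their long exceptions were few. Rps15a had a 3′ UTR of 4722 bases and a 5′ UTR of 15 bases, and 3272 and 56 bases in its lowest-numbered transcript. Rps20 had a 3′ UTR of 3167 bases. Together with Rps3 (1059 bases), the KH-domain protein at the mRNA entry channel, these were the small subunit genes past 1000 bases; 8 genes of the 83 were. A few genes, 3 in all, are drawn with no 3′ UTR. Rpl34 is tagged as incomplete at its 3′ end, Rps12 ends at its stop codon, and Rpl7 is tagged as incomplete at its start and has no UTR on either side; the lowest-numbered transcripts give Rpl7 a 5′ UTR of 284 bases and a 3′ UTR of 66, and Rpl34 a 3′ UTR of 44. The stalk genes were not alike in their 3′ UTR, with 283 bases in Rplp0, 277 in Rplp2 and 40 in Rplp1. Rps27a, which is translated as a fusion of ubiquitin with a small subunit protein, had 6 exons, a first exon of 269 bases and a 3′ UTR of 34.

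The start codon often lay at the very end of the first exon. It was in exon 1 of 56 of 83 (67.5%), close to the 68.8% of all protein-coding genes, in exon 2 in 26 and in exon 3 in 1, Rpl39l. The 56 count Rpl7, whose model is incomplete at its start. Among models with a 5′ UTR the counts were 55 of 82 (67.1%) and 64.6% of 19492. But in 21 of the 81 multi-exon genes (25.9%) exon 1 ended exactly with the 3 bases of the start codon, so that the first intron separates the initiator methionine from the rest of the protein. This held for 236 of 19484 multi-exon protein-coding genes (1.21%) and for 0 of the 78 mitochondrial ribosomal protein genes. The 21 genes belong to both subunits. Among them are Rpl3, Rpl4, Rpl5, Rpl7a, Rpl14, Rpl27a, Rpl35, Rpl36a, Rpl37, Rpl37a, Rpl38 and Rpl39 of the large subunit, Rps4x, Rps15, Rps18, Rps20, Rps24, Rps25 and Rps26 of the small subunit, and the paralogue Rpl3l. Rpl5, which carries 5S ribosomal RNA to the large subunit, had a first exon of 145 bases of which 142 were 5′ UTR. Rpl3 and its muscle paralogue Rpl3l share the arrangement, with 27 and 64 bases of 5′ UTR before the start codon. Counting also exons that end up to 3 bases later, 30 of 83 (36.1%) had at most 6 coding bases in exon 1, against 1.83% of protein-coding genes.

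**Figure D2:**
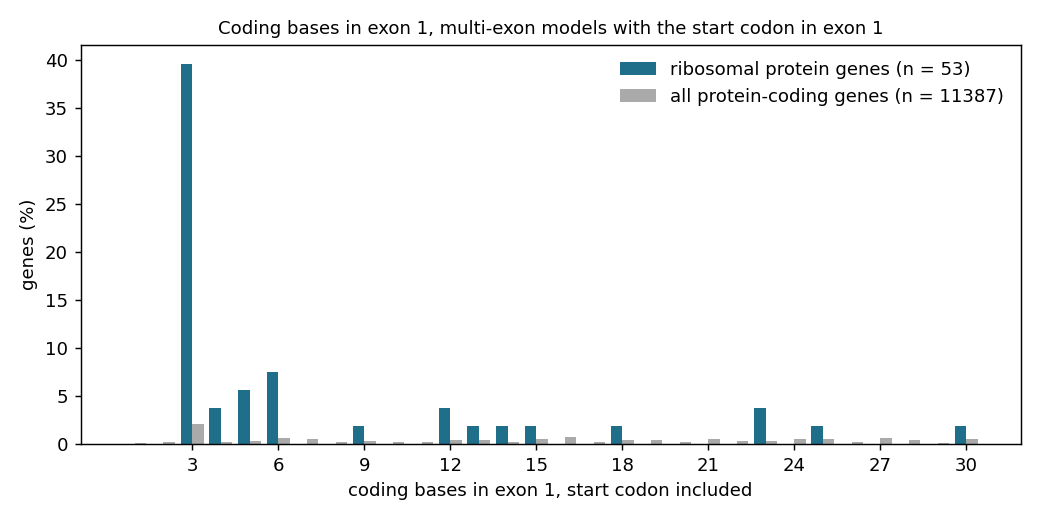
Share of genes (%) by the number of coding bases in exon 1, for multi-exon models with a 5′ UTR whose start codon lies in exon 1 (53 ribosomal protein genes, blue; 11387 protein-coding genes, grey; values over 30 bases are not drawn). The blue bar at 3 bases, the start codon alone, holds 21 of the 53 genes.

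Transcription of TOP mRNAs starts at a C that pyrimidines follow, so the annotated starts were searched for a C with at least 4 more pyrimidines. Promoter sequences from RefSeq (GRCm38.p6) were found for 62 of the 83 genes. The following stretches of 30 bases, the start preceded by 15 bases, are shown because the start lies within such a tract; capitals mark the unbroken run of C and T that holds the start, and positions are GRCm38 with the strand.
Rpl38 (chr11:114668565-114668594, +): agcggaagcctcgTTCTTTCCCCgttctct
Rpl28 (chr7:4792950-4792979, +): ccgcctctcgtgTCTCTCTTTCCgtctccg
Rpl35a (chr16:33056467-33056496, +): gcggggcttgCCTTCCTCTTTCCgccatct
Rps10 (chr17:27635230-27635259, -): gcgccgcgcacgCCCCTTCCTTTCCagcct
Rps18 (chr17:33955651-33955680, -): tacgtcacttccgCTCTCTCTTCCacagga
Rps6 (chr4:86857353-86857382, -): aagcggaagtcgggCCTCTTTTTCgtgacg
Rps27 (chr3:90213634-90213663, -): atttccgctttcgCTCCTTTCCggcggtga
Rplp2 (chr7:141447636-141447665, +): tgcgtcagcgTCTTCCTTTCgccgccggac
The 8 runs are 9 to 13 bases long. In all, 13 genes had the tract at a RefSeq start, and the runs not printed are 7 (Rps21) to 18 bases long (Rpl35). Rpl35a has further RefSeq starts, and these lie in no such run. For contrast, 3 starts show no such run at or beside the start: Rpl11, which joins Rpl5 in carrying 5S RNA, Rpl10l, a testis-expressed copy of Rpl10, and Rpl3l.
Rpl11 (chr4:136053379-136053408, -): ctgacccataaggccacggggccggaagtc
Rpl10l (chr12:66284387-66284416, -): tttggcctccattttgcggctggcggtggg
Rpl3l (chr17:24727811-24727840, +): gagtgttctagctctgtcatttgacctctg
The Rpl11 stretch holds the letters CCGGAAG, which are searched below.

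The number of genes called differed with the start that was read, and so did the set of genes with sequence there. At the start of the representative transcript, which had sequence for a partly different 62 of the 83 genes, 3 (4.84%) began with the tract, against 2.09% of 18537 protein-coding genes with sequence and 3.17% of 63 mitochondrial ribosomal protein genes. At any RefSeq start, 13 of 62 (21.0%) did, against 2.73% of 16015 genes and 0 of 69 mitochondrial ribosomal protein genes. The translation factors and other known TOP genes had the tract in 2 of 30 (6.67%) there. At the representative start they had it in 4 of 31 (12.9%), a higher share than the ribosomal protein genes. With the C allowed within 5 bases of a RefSeq start, 29 of 62 (46.8%) had it, against 21.8% of all genes, 24.6% of the mitochondrial set and 23.3% of the other TOP genes. Both kinds of start had sequence for 48 ribosomal protein genes, and in these the counts were 2 at the representative start (4.17%), 10 at any RefSeq start (20.8%) and 21 within 5 bases of one (43.8%). The deposited start and the RefSeq start were the same base for 18 of 62 genes and for 7083 of 16015 genes overall (44.2%), and the median distance between them was 21 bases against 4. In the 43 ribosomal protein genes with at least 2 coding transcripts, the starts of those transcripts spread over a median of 312 bases.

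In the 300 bases around a RefSeq start (250 before and 50 after, both strands searched), the letters CCGGAAG, the core bound by ETS-family factors, occurred in 25 of 62 genes (40.3%) and in 13.2% of 16015. The letters AAGATGG, part of the YY1 motif, occurred in 10 (16.1%) and in 7.28%. The letters CCAAT occurred 18 of 62 against 42.1%. TATAA between 40 and 15 bases before the start occurred in 5 (8.06%) against 5.83%. These are matches of letters and not measured binding.

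Introns of the 83 genes held many snoRNA genes. Of the 81 genes with an intron, 29 (35.8%) held at least 1 snoRNA gene wholly inside an intron and on the same strand, against 247 of 19484 multi-exon protein-coding genes (1.27%). Together they held 55 snoRNA genes, 16.7% of the 330 in introns of protein-coding genes, although they make up 0.375% of those genes. Large subunit genes were hosts in 19 of 43 cases, small subunit genes in 9 of 30, stalk genes in 1 of 3 (Rplp2) and the paralogues with introns in 0 of 5. None of the 78 mitochondrial ribosomal protein genes was a host. By name, 21 of the 55 were Snord genes, the box C/D type that guides ribose methylation, and 10 were Snora genes, the box H/ACA type that guides pseudouridylation; 24 had other names, mostly Gm numbers.

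Rpl4 held the most, 5 snoRNA genes, in its introns 2 to 6. Rpl13a held 4, Snord32a, Snord33, Snord34 and Snord35a, which are known to be released from its introns. Rpl5, Rpl7a, Rpl17, Rpl23a and Rps12 held 3 each, and 6 genes held 2. Of the 24 protein-coding genes of the whole annotation with at least 3, 8 were ribosomal protein genes. Every one of the 55 had an intron to itself: 55 of the 360 introns of the 83 genes were occupied and 0 held more than 1, whereas 11 of 268 occupied introns in other protein-coding genes did.

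The snoRNA genes lay a short way from both ends of short introns. Their median distance to the 3′ splice site was 87 bases (quartiles 71.5 and 183.5), against 1272.5 for the 276 in other protein-coding genes, in introns of median length 405 and 2649.5 bases. The median distance from the 5′ splice site was 134 bases (quartiles 52 and 404) against 980.5. Of the 55, 27 lay nearer the 5′ splice site, 27 nearer the 3′ splice site and 1 at the same distance from both. For Snord genes the distance to the 3′ splice site was 72 bases (quartiles 68 and 92) and 19 of 21 lay 60 to 110 bases from the splice site, against 16 of 36 Snord genes in other hosts, where the median was 151. Snord68 is counted in both sets, in Rpl13 at 59 bases and in a long intron of Gm20388 at 1192234 bases. In Rpl13a the 4 distances were 107 (Snord32a), 69 (Snord33), 63 (Snord34) and 108 bases (Snord35a), and all 4 lay closer still to the 5′ splice site, at 31 to 43 bases. The 10 Snora genes had a similar median of 74.5 bases but a wider spread, and Snora52 in Rplp2 lay 2064 bases away, the farthest of all 55, and 28 bases from the 5′ splice site.

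**Figure D3:**
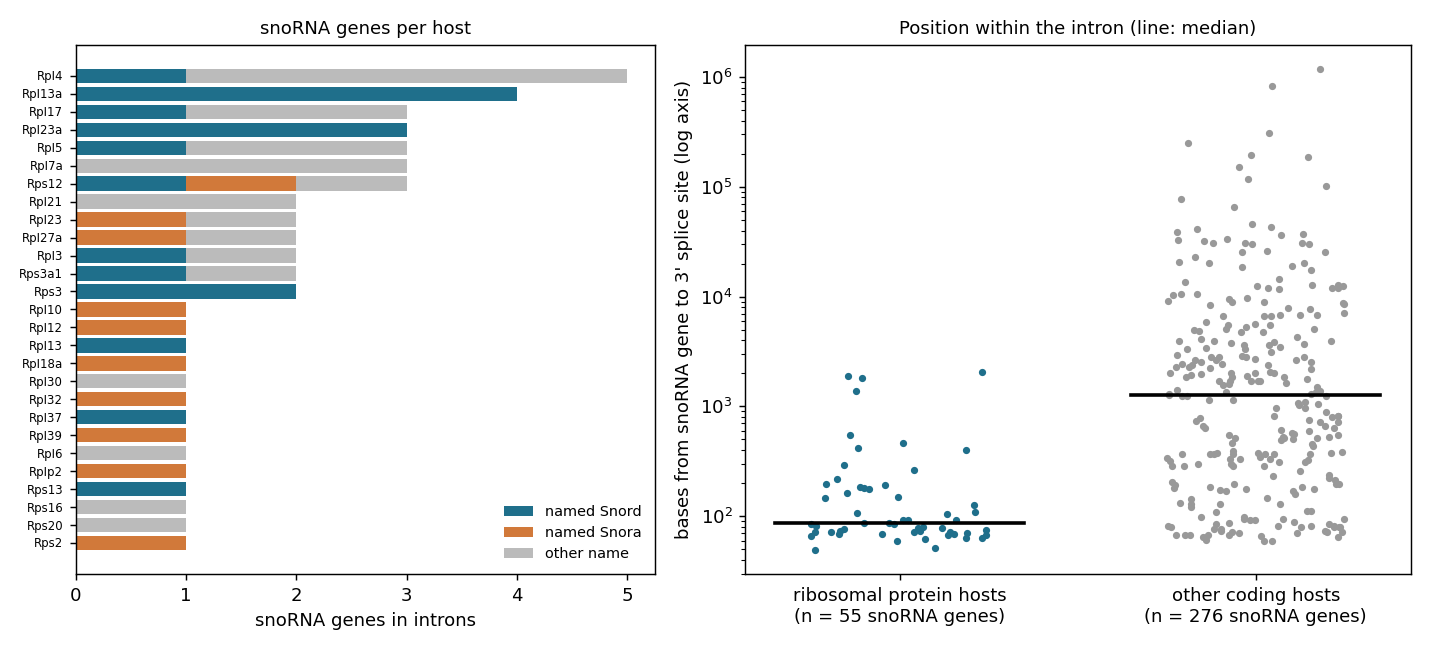
Left, snoRNA genes per ribosomal protein host, coloured by the class in the name; right, bases from each snoRNA gene to the 3′ splice site of its intron (log axis, black lines are medians) for 55 snoRNA genes in ribosomal protein genes and 276 in other coding genes. The left points run from 49 to 2064 bases around a median of 87, and the right points from 59 to 1192234 around 1272.5. The point at 1192234 is Snord68 in an intron of Gm20388, and Snord68 is also among the left points, in Rpl13.

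The boxes that give the C/D class its name can be read in the sequences. Below are the first and the last 30 bases (GENCODE M21 transcripts) of Snord33 and Snord32a of Rpl13a and of Snord100 of Rps12, with box C (TGATGA) and box D (CTGA) in capitals; the positions in GRCm38 are those of the whole snoRNA gene.
Snord33 (chr7:45126864-45126947, -), first bases: gcagcttgTGATGAgacatctcccactcat
Snord33, last bases: gactctacatgcactaccatCTGAggctgt
Snord32a (chr7:45127382-45127464, -), first bases: ggagtccaTGATGAgcaacactcaccatct
Snord32a, last bases: agatcaacccatgcaccgctCTGAgactcg
Snord100 (chr10:23785750-23785823, -), first bases: gctgtacaTGATGAaaacagtctccctctt
Snord100, last bases: ggaaactgcacgtcaccctcCTGAaacagc
In each of the 3, box C lies near the first base and box D near the last. Of the 21 Snord genes, 12 held both boxes in exactly these letters near their ends.

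snoRNA genes of 1 host often resembled each other. The longest run of identical bases was taken for every pair of the 55. It reached 12 bases in 14 of 43 pairs within a host (32.6%) and in 1 of 1442 pairs between hosts (0.0693%), while the median was 7 bases in both kinds of pair. The longest run, 40 bases, joined Gm22270 and Gm26387 in neighbouring introns of Rpl5. Rpl4 holds 2 such families: Snord16a and Gm23136, and the trio Gm23344, Gm22571 and Gm22455, in alternate introns. Stretches of 30 bases around the shared run are printed for 2 pairs, with the run in capitals.
Snord16a in Rpl4 (chr9:64175431-64175460, +): tgtcGTAATTTGCGTCTTACTCTGTTcaca
Gm23136 in Rpl4 (chr9:64176669-64176698, +): tgttGTAATTTGCGTCTTACTCTGTTttca
Gm22571 in Rpl4 (chr9:64175889-64175918, +): acttaATGGTCCGTGTTTCTGAAAcgcatg
Gm22455 in Rpl4 (chr9:64177141-64177170, +): acttcATGGTCCGTGTTTCTGAAAtaacat
The shared runs are 22 and 19 bases long, and the bases that touch them differ, while several of the other flanking bases are the same in both members of a pair.

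Processed pseudogenes named for these genes, that is the symbol followed by -ps and in most cases a number, totalled 227 for 53 of the 83 genes (63.9%). Over all protein-coding genes 0.778% had such a namesake. Rpl31 had the most, 22, followed by Rps12 with 20, Rps19 with 14, Rpl23a with 13 and Rpl21 with 11. Rps19, the gene most often mutated in Diamond-Blackfan anaemia, and Rps12 are small subunit genes, and the other 3 belong to the large subunit. The remaining 30 genes had 0, among them Rpl4, Rpl6, Rpl7, Rps3 and Rps7.

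Many more copies were found by sequence than by name. The GENCODE M21 transcripts of 5875 of the file's 5954 processed pseudogenes were aligned to all protein-coding transcripts with BLAST, and a pseudogene was assigned to its best match if it had at least 80% identity over at least 50% of its length. Of these, 1183 (20.1%) matched 1 of the 83 genes best, which is 26.0% of the 4552 that matched any protein-coding gene. At least 1 was found for 80 of 83 genes (96.4%), against 7.15% of protein-coding genes. The 3 genes with none were the paralogues Rpl39l, Rpl3l and Rps4l. Of the 1183, 856 (72.4%) carry a Gm symbol that does not name their template. Names and sequences went together: 212 of the 218 named pseudogenes that matched any gene matched the gene in their name best.

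Copies were spread unevenly. Rpl7a had 99, Rpl21 had 79, Rpl29 and Rps2 had 69 each, Rpl17 had 46, Rpl23a had 44, Rpl31 had 36, Rpl35a had 31, Rpl27a had 27 and Rpl3 had 26. These 10 genes held 526 of the 1183 (44.5%), and the median gene had 9. Rpl7a, a large subunit protein, ranked second among all protein-coding genes, behind Gapdh with 263, and 12 of the top 20 genes were ribosomal protein genes. At the low end, genes with 1 included Rpl4, Rpl8, Rps3, Rps9 and Rpl10l. Large subunit genes had 800 in total, small subunit genes 351, stalk genes 19 and the paralogues 13. The order by name was not the order by sequence: Rpl29 had 3 named and 69 matched, and Rps12 had 20 named and 23 matched. Across the 83 genes the number of matched copies had a Spearman correlation of -0.03 with coding length and of -0.10 with spliced length. The order of the genes depended on the setting. At 90% identity over 80% of the length, Rpl21 had 66 copies and Rpl7a 49. In another run, single-exon coding genes outside the 83 were left out as targets. Rpl23a then had 58, above Rpl17 with 46, and Rpl9 had 32, above Rpl3 with 26.

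**Figure D4:**
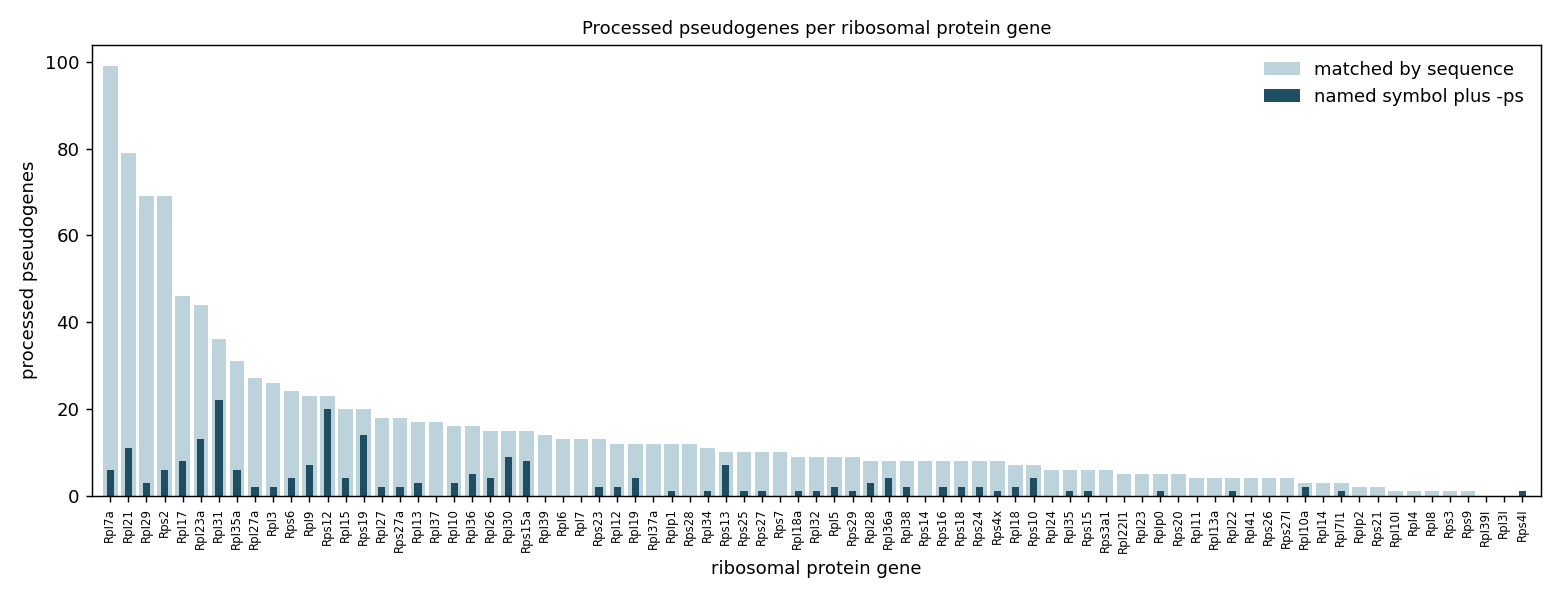
Processed pseudogenes per ribosomal protein gene, matched by sequence (light bars) and named for the gene (dark bars), ordered by the light bars. Rpl7a (99), Rpl21 (79), Rpl29 (69) and Rps2 (69) stand above the rest, while the tallest dark bars are those of Rpl31 (22) and Rps12 (20).

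Most matched copies are close to their template. Their median identity was 92.2% (quartiles 87.3 and 96.7), against 91.9% for the 3369 processed pseudogenes that matched other genes. At least 95% identity was reached by 423 (35.8%), at least 99% by 102, and 100% by 23. A single exon block was annotated in 1126 (95.2%), and the alignment covered a median of 61.1% of the template transcript. Rpl31 illustrates the range. Of its 22 named copies, 20 had 1 exon block and were assigned to it, with identities from 86.0 to 100% and a median of 95.9%. Codons 11 to 20 of Rpl31 are printed above the most similar 30 bases of 5 of these copies, from the highest to the lowest identity, with mismatches to Rpl31 in capitals (GENCODE M21 transcripts, GRCm38).
Rpl31 (chr1:39368179-39368208, +): aagaagggccgttctgccatcaacgaggtg
Rpl31-ps8 (chr15:90764597-90764626, -): aagaagggccgttctgccatcaacgaggtg
Rpl31-ps17 (chr12:54701647-54701676, -): aagaagggcTgttctgccatcaacgaggtg
Rpl31-ps15 (chr3:37734757-37734786, +): aagaagggccgttctgccatcaacgaggtg
Rpl31-ps6 (chr5:123466536-123466565, +): aagaagAgcTgttctgccatcaacgaggtA
Rpl31-ps25 (chr17:81791880-81791909, -): GagaagggAcAttctgccatcaacgaggtg
Rpl31-ps8, at 100% identity, and Rpl31-ps15, at 95.5%, are identical to the gene in this stretch, Rpl31-ps17 (98.1%) differs at 1 base, and Rpl31-ps6 (91.3%) and Rpl31-ps25 (86.0%) differ at 3 each.

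Of the 1183 copies, 67 (5.66%) were on the chromosome of the matched gene. The chromosome shares of the copies and of their templates alone give 5.91%. The X chromosome held 145 (12.3%), more than any other chromosome, and chromosome 2 held 122 (10.3%). Of protein-coding genes, 4.23% lie on the X chromosome and 8.24% on chromosome 2. The other processed pseudogenes were not counted by chromosome, so whether these shares are particular to ribosomal protein copies was not tested. Of the 83 genes themselves, 14 (16.9%) were on chromosome 7, where 9.06% of protein-coding genes lie, and 8 (9.64%) on chromosome 17, where 4.76% lie. Chromosomes 19 and Y, with 3.20% and 0.828% of protein-coding genes, had 0. Of the copies, 270 (22.8%) lay inside the span of a protein-coding gene on the opposite strand and 116 (9.81%) on the same strand. For the other processed pseudogenes these shares were 13.0% and 8.70%.

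Copies and genes share stretches as long as a read. Every 75-base window of a transcript was looked up, on either strand, in all GENCODE M21 transcripts of other genes, 75 bases being the read length. A median of 45.9% of the windows of a ribosomal protein gene also occurred in another gene, against a median of 0% for all protein-coding genes and 0.466% for the mitochondrial ribosomal protein genes. At least 50% of windows were shared in 36 of 83 genes (43.4%), against 8.18% of 21625 protein-coding genes, and at least 10% in 67 (80.7%), against 21.6%. Of the 748 pairs of a ribosomal protein gene and a gene sharing windows with it, 468 were with processed pseudogenes and 87 with protein-coding genes, and in 160 pairs the partner had no entry in the deposited file.

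Rps27 led with 98.5% of its 271 windows, of which 267 also occurred in Rps27rt, a single-exon protein-coding gene that matched it at 100% identity. Rpl5 followed with 92.5%, in part through Gm15500, a transcribed processed pseudogene, and in part through 879 windows on the other strand in Fam69a, a neighbour that overlaps it. Rpl9 had 91.3%, Rpl35 89.2%, Rpl10 84.9%, Rpl36a 84.6% and Rps6, the S6 kinase substrate, 84.1%. For Rpl35, 479 of 872 windows (54.9%) were shared with Wdr38, an overlapping neighbour on the opposite strand and not a copy. For Rpl10 all shared windows lay in Rpl10-ps3, and for Rps6 all lay in Rps6-ps4, so 1 near-perfect copy accounted for the whole share. By contrast Rps3 and the paralogues Rpl3l and Rpl39l shared 0 windows. Rpl21 had 79 matched copies and shared 22.1% of its windows, and its model has a 3′ UTR of 1079 bases. Across the 83 genes the shared percentage and the number of matched copies had a Spearman correlation of 0.48; both come from the same transcript sequences.

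**Figure D5:**
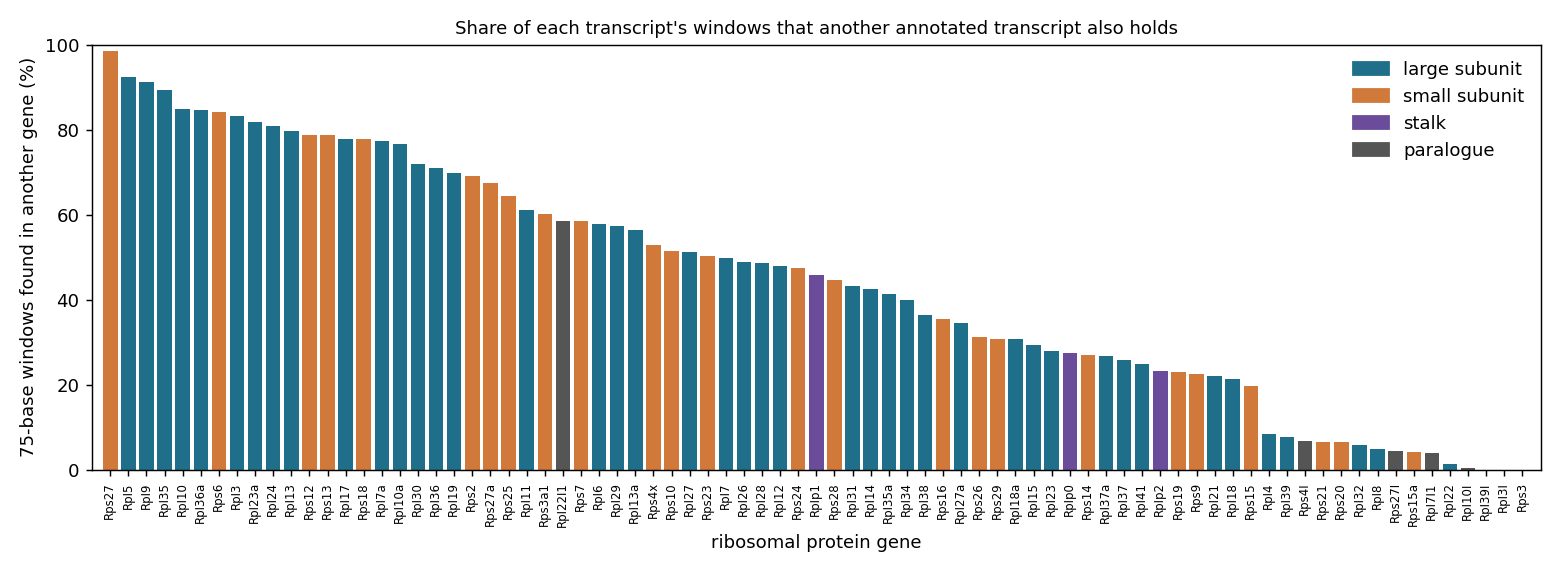
Percentage of each gene's 75-base windows that also occur in another gene's transcripts, on either strand, coloured by role. The bars run from 98.5% (Rps27) to 0% (Rpl3l, Rpl39l and Rps3), and 6 of the 7 paralogues stand at the right end, below 7%.

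The 7 paralogues resembled their parents in some of these measures and not in others. Rpl10l and Rps4l had 1 exon each where Rpl10 had 6 and Rps4x 7, with coding sequences of 642 and 786 bases against 642 and 789. The other 5 had introns: Rpl3l had 10 exons like Rpl3, Rpl39l 3 like Rpl39, Rpl22l1 4 like Rpl22, Rpl7l1 7 where the incomplete model of Rpl7 had 6, and Rps27l 5 where Rps27 had 4. With the lowest-numbered transcripts Rpl7 and Rpl7l1 had 7 exons each, and Rps27 and Rps27l had 4 each. Rpl7l1 also had the longest 3′ UTR of the 83 genes after Rps15a and Rps20, 1841 bases. Rpl3l, a striated muscle protein, and Rpl39l, which is made in testis, matched 0 pseudogenes each where Rpl3 had 26 and Rpl39 had 14. Rpl22l1 shared 58.6% of its windows where Rpl22, whose model has a 3′ UTR of 1647 bases, shared 1.42%. Of the 478 windows of Rpl22l1, 234 occurred in Gm15421, a transcribed processed pseudogene. The overlapping antisense gene Gm33051 held 87, and the matched copy Gm16053 held 3. The 5 matched copies of Rpl22l1 stood against 4 for Rpl22, and at 90% identity over 80% of the length the counts were 2 and 4. The parents hosted 4 snoRNA genes between them, 2 in Rpl3 and 1 each in Rpl10 and Rpl39, and the paralogues hosted 0.

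Some of the 83 genes also share exon bases with a neighbour. Exons of another gene overlapped those of 29 genes (34.9%), against 24.2% of protein-coding genes. On the same strand the shares were 22.9% and 6.05%, and on the opposite strand 16.9% and 19.7%. A snoRNA gene was a same-strand partner in 17 genes, where a transcript that retains an intron, or an alternative exon, covers it. A transcript with a retained intron was annotated for 47 of the 83 genes (56.6%), against 6637 of 22111 protein-coding genes, and a nonsense-mediated decay transcript for 14.5% against 14.2%. The largest overlaps with protein-coding genes on the other strand were 66.2% of the exon bases of Rpl35 with Wdr38, 59.7% of Rpl23a with Tlcd1, 30.01% of Rps25 with Ccdc84, 25.3% of Rpl31 with Tbc1d8 and 24.3% of Rpl5 with Fam69a. On the same strand, Gm28037 covered 47.0% of Rpl24 and Flt3l 28.2% of Rpl13a. No source used here says that the library kit marked the strand. Without strand, reads from the shared bases of an opposite-strand pair cannot be told apart. In a same-strand pair, strand would not separate them either.

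Other genes of the translation machinery gave the context, as counts and medians of lists. The 40 translation factors and other known TOP genes had a median of 11 exons, a first exon of 202 bases and a 3′ UTR of 513.5 bases, and 10 of 40 hosted 21 snoRNA genes. In 2 of them (5.0%) exon 1 ended with the start codon, and 28 (70.0%) had a matched pseudogene, with 122 in all. The 32 ribosome assembly factors had a median of 12 exons and a 3′ UTR of 461 bases; 6 of the 30 with introns hosted 18 snoRNA genes, exon 1 ended with the start codon in 3, and 16 had a matched pseudogene.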

How the data were processed

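The series provides RNA-seq of 4 macrophage libraries, 1 per group. The deposited file is a gene annotation with 1-based start and end coordinates on GRCm38 (1500259 lines, each with a dot as its score), and 0 of its columns hold library values. Ensembl models with Cufflinks start-site groups were written into it by the authors, per the file's attributes. Tools named in the submitters' processing notes, without a role, are Bowtie2, CASAVA 1.8, Cufflinks, FastQC and TopHat2.

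Models were read with Python 3.11.15 and numpy 2.4.6. The representative transcript is the protein_coding transcript with the longest coding sequence, ties going to the longer spliced length. A snoRNA gene is hosted when it lies wholly in an intron of that transcript on the same strand. Sequences came from GENCODE M21 transcripts and RefSeq promoters, both GRCm38. Pseudogene transcripts were aligned with BLAST 2.17.0 (word size 11, e-value 1e-10, plus strand) and assigned by the highest bit score of 1 alignment. Where bit scores tied, a ribosomal protein gene of the described set was taken before any other gene. Functions were tested on simulated models and sequences. Counts from an annotation have no replicate error, and no test across samples was possible.

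The genes and lists were chosen with earlier results of these data known. Named genes are, for each measure, the 3 highest and 3 lowest, every host of 3 or more snoRNA genes, the 10 genes with most pseudogenes, each paralogue with its parent, Rplp0, Rplp1, Rplp2 and Rps27a; other genes named were chosen after their values were seen. Some genes that this rule takes, and 1 short list, are not reported here and are not drawn with labels, but the genes count in every total.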

Additional observations from a re-analysis of the deposited data

How the results depend on the processing

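The median exon number, first exon, 5′ UTR and 3′ UTR lengths, the share with the start codon in exon 1, the host and named-pseudogene counts and the exon overlaps all stayed within their 95% order-statistic or binomial interval, or within 1.5-fold for counts, under each alternative run: the longest spliced or the lowest-numbered transcript, the set without paralogues, other rules for introns, biotypes, chromosomes and overlap, and GENCODE M21 models, the last chosen after seeing the data. Matched pseudogenes fell from 1183 to 727 when 90% identity over 80% of the length was required, because fewer can pass. They were 1213 with single-exon coding genes outside the group left out as targets, a setting chosen after seeing the data. The order of the genes by copies changed under both settings. Genes whose start begins with a pyrimidine tract were 3 of 62 at the representative start and 11 of the same 62 (17.7%) with the C within 5 bases downstream, against 10.3% of all genes and 17.5% of the mitochondrial set. The other settings read partly different genes: 12 of 68 (17.6%, against 4.47% and 4.69%) with any coding transcript and, in alternatives chosen after seeing the data, 13 of 62 at any RefSeq start and 29 of 62 within 5 bases of one. In the 48 genes with sequence for each of these starts the counts, in the same order, were 2, 9, 7, 10 and 21. No paired analysis was possible because the file holds no library values and each group has 1 library, and for the same reasons no replicate could be left out.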

Other observations

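Some copies are classed as coding genes. In the deposited file 18 genes named for 14 of the ribosomal protein genes with -ps carry the biotype protein_coding, and 17 of them have 1 exon. In 8 of the 18 the coding sequence has the length of the named gene's: Rpl10-ps3 has 642 bases like Rpl10, Rpl23a-ps3 468 like Rpl23a, Rpl7a-ps8 798 like Rpl7a, Rpl9-ps6 576 like Rpl9 and Rps12-ps3 396 like Rps12. In GENCODE M21, 12 of the 18 are processed_pseudogene, 1 is transcribed_processed_pseudogene and 5 are still protein_coding. More widely, 51 of 2542 single-exon protein-coding genes matched a ribosomal protein gene, 33 of them with Gm symbols and 24 at 98% identity or more, and GENCODE M21 lists 37 of the 51 as processed pseudogenes and 12 as protein-coding. Gm9493 matched Rps7 at 99.5% identity with 576 coding bases against 582. A count of expressed protein-coding genes made with the deposited file would include these copies, and how many reads each received was not analysed here.

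Protein-coding genes of other functions also appeared among the partners. Of the 659 windows of Rpl29, 292 occur in transcripts of Uimc1. The Rpl29 copy Gm6344, at 99.4% identity, shared 273 windows and lies inside a protein-coding gene on the opposite strand. Whether that gene is Uimc1 was not tested. Other such partners were Trappc4 with 388 of the 1206 windows of Rps25, Wdr89 with 206 of the 890 of Rplp2 and Med21 with 97 of the 607 of Rps26.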
